A study of Mus musculus with 12 samples.

Results

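The genes described here encode parts of the integrated stress response, together with Eif2ak1, the gene for the heme-regulated kinase HRI. They were listed by symbol: 10 genes (Eif2ak1, Atf4, Atf5, Ddit3, Ppp1r15a, Trib3, Asns, Chac1, Sesn2 and Ddit4), of which 9 were matched to rows of a count table of 17210 genes. All 9 were among the 11177 genes with enough counts to be tested. Chac1, whose product degrades glutathione, was matched to no row, so its level was not analysed here and only its promoter is described.

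The integrated stress response is a pathway in which kinases that sense different stresses phosphorylate the translation initiation factor eIF2α. General protein synthesis then falls, while the mRNA of the transcription factor ATF4 is translated better, and ATF4 turns on genes of amino acid supply, redox balance and feedback control. HRI is the eIF2α kinase best known in erythroid cells, where a shortage of heme activates it and so ties the synthesis of globin chains to the supply of heme. HRI activity and ATF4 output are set largely by phosphorylation and translation, and the values below are mRNA levels.

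The 12 RNA libraries came from the G1E-ER4 line, mouse erythroid progenitors without a GATA1 of their own that express GATA1 joined to the ligand-binding domain of the estrogen receptor. β-Estradiol (EST) turns this fusion on. All 12 libraries, the controls included, carry this fusion, and the labels give 1 line of strain C57BL/6J. The Vector group received a retrovirus with no insert and no EST (untreated in one label, Vehicle in the protocol), the SREBP2 group a retrovirus encoding active SREBP2 and no EST, and the Vector+EST and SREBP2+EST groups the same viruses followed by EST, with 3 libraries in each group. Transduction lasted 24 h and treatment 6 h, and for the EST dose the sample protocol states 500 nM where the series design states 200 nM. No sorting of transduced cells is given in the sources used here, and the labels do not say whether the libraries of a group came from separate cultures. A legend of the study that covers these libraries and other assays together speaks of independent experiments. The p-values measure the spread between these libraries, part of which may be technical.

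Library totals ran from 18700959 to 19152281 counts. The row of mouse Srebf2, the gene that encodes SREBP2, averaged 361 ± 8.32 (Vector), 441 ± 13.0 (Vector+EST), 816 ± 20.1 (SREBP2) and 808 ± 6.66 (SREBP2+EST) CPM, which is the count relative to library size after TMM scaling (mean ± SD, n = 3). It is not a direct level of the insert: a legend of the study names human SREBP2 for cells of this line that received a retrovirus for active SREBP2, and in this row of the mouse gene endogenous transcripts and any reads of the insert cannot be told apart. The row separated the 6 libraries with added SREBP2 from the other 6 and could not tell SREBP2 from SREBP2+EST. The labels name the cell type as embryonic stem cells, but 10 of 10 erythroid markers exceeded 1 CPM in every library, and the 4 of 8 pluripotency markers found summed to at most 0.65 CPM, with Esrrb at 0 in all but the Vector group. The erythroid sum was 9850 to 10300 CPM in Vector and 6400 to 7650 CPM in the other groups, and its genes did not move in 1 direction. Hba-a1 (3090 ± 115 CPM in Vector and 1590 to 1740 on average in the other groups), Gata1 (1770 ± 17.0 and 452 to 557) and Tal1 (479 ± 4.92 and 92.3 to 103) made up most of the drop, and this line carries GATA1 as the fusion. Alas2 (52.1 ± 0.168 and 138 to 176), Tfrc (526 ± 23.5 and 806 to 838) and Klf1 (267 ± 10.5 and 330.0 to 335) averaged higher outside Vector. Of 9 mesenchymal markers, 8 were found, and their sum was 19.7 to 20.8 CPM in Vector, where Col1a2 made up nearly all of it, 4.45 to 6.06 in SREBP2 and in Vector+EST libraries 1 and 3, 37.0 in Vector+EST library 5 and 19.0 to 36.0 in SREBP2+EST. The 9 neuronal markers summed to 11.1 to 12.9 CPM in Vector, most of it Tubb3, and to 2.07 to 5.79 CPM in the other groups. The part of these markers in the results below was not tested. Library 1 of SREBP2 and library 1 of SREBP2+EST stood apart from their groups: the chi-square per gene between replicates, for which pure counting error gives about 1, was 8.17 and 10.6 for the first, 6.2 and 6.31 for the second and 1.8 to 3.32 for all other pairs. Of the 9 genes, SREBP2+EST library 1 was the middle library of its group for 0 and SREBP2 library 1 for 3. SREBP2 library 3, which did not stand apart, was in the middle for 1, so these places do not mark out the 2 libraries. Across genes, which are not independent, the deviations of SREBP2 library 1 from its group mean correlated with those of SREBP2+EST library 2 (r 0.48), and those of SREBP2+EST library 1 with SREBP2 libraries 3 and 5 (r 0.326 and 0.358). The mesenchymal sum of both lay near that of the other libraries with the same label, at 4.45 CPM in SREBP2 library 1 and 21.5 CPM in SREBP2+EST library 1. Whether the labels of these 2 libraries were exchanged was not tested. The effect of leaving both out is given with each comparison.

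Promoters bear on how these genes are read, since ATF4 binds a composite C/EBP-ATF element and GATA1, the factor that EST turns on here, binds GATA motifs. RefSeq promoters, taken from 250 bases before to 50 after each start, were searched on both strands for TGATGNAA (C/EBP-ATF) and for the GATA letters AGATAA, with TGATAA as the other form. No promoter of the 10 genes held both motifs. The first was present in 3.97% of 32851 promoters and in 3 of the 10 listed genes, Trib3, Asns and Chac1. The GATA letters were present in 18.6% of promoters and in 3 of the 10 genes, Ppp1r15a, Ddit3 and Atf4. The sterol regulatory element of the LDL receptor promoter, a site of SREBP2 binding, was found in 0.0913% of promoters and in 0 of the 10. The windows of the measured genes that hold a match are shown because Trib3 and Ppp1r15a mark the largest fall and the largest rise with EST among them. Each is 30 bases on the strand of the gene (GRCm38.p6), with the match in capitals. They lie at chr2:152344028-152344057 on the minus strand for Trib3, chr6:7693214-7693243 minus for Asns, chr7:45526441-45526470 minus for Ppp1r15a, chr10:127290787-127290816 plus for Ddit3 and chr15:80255133-80255162 plus for Atf4.
Trib3: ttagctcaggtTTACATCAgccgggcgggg
Asns: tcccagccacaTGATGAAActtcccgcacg
Ppp1r15a: tacgtgactgccAGATAAggttcgcgtact
Ddit3: tcttgaggtcagTTATCTtgagcctaacac
Atf4: cggcgtctcgcgTGATAAcctggcagcttc
The Trib3 and Ddit3 matches read on the opposite strand of the gene and begin 14 and 6 bases after its start, whereas those of Asns, Atf4 and Ppp1r15a begin 23, 39 and 190 bases before it. These distances run from the RefSeq starts, which for Trib3, Asns and Ddit3 are not the starts in the GENCODE positions given for the genes. By the GENCODE starts, the Asns match lies inside the gene and the Trib3 match before it. A match of letters is a description of the window and was not tested as a binding site.

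The first question was how EST, and SREBP2 overexpression without EST, moved these genes in relation to Vector cells. With EST, Eif2ak1, Ddit3, Ppp1r15a and Sesn2 rose and Atf4, Atf5, Trib3, Asns and Ddit4 fell, so 9 of 9 measured genes passed the threshold (edgeR quasi-likelihood test, adjusted p under 0.05 over all genes tested). The background was high: 70.6% of 11177 genes passed in this comparison, 35.2% upward and 35.5% downward, so passing the test was common to most genes. With SREBP2 alone, 8 of 9 passed against 71.5% of all genes (37.7% upward, 33.8% downward), the same 4 upward and Atf4, Atf5, Trib3 and Asns downward, while Ddit4 did not pass. The median log2 fold change of the 9 genes was -0.36 with EST, beside 0.01 over all genes, and 0.09 with SREBP2, beside 0.03. Without both libraries that stand apart, the counts were again 4 higher and 5 lower with EST, beside 72.9% of all genes called, and 4 and 4 with SREBP2, beside 70.7%, and the log2 fold change that moved most was that of Ddit4 with SREBP2, from 0.09 to 0.0. Both comparisons use the same 3 Vector libraries, so their values are set side by side and are not independent. In these bulk libraries, fewer cells of a type and less RNA per cell cannot be told apart.

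**Figure D1:**
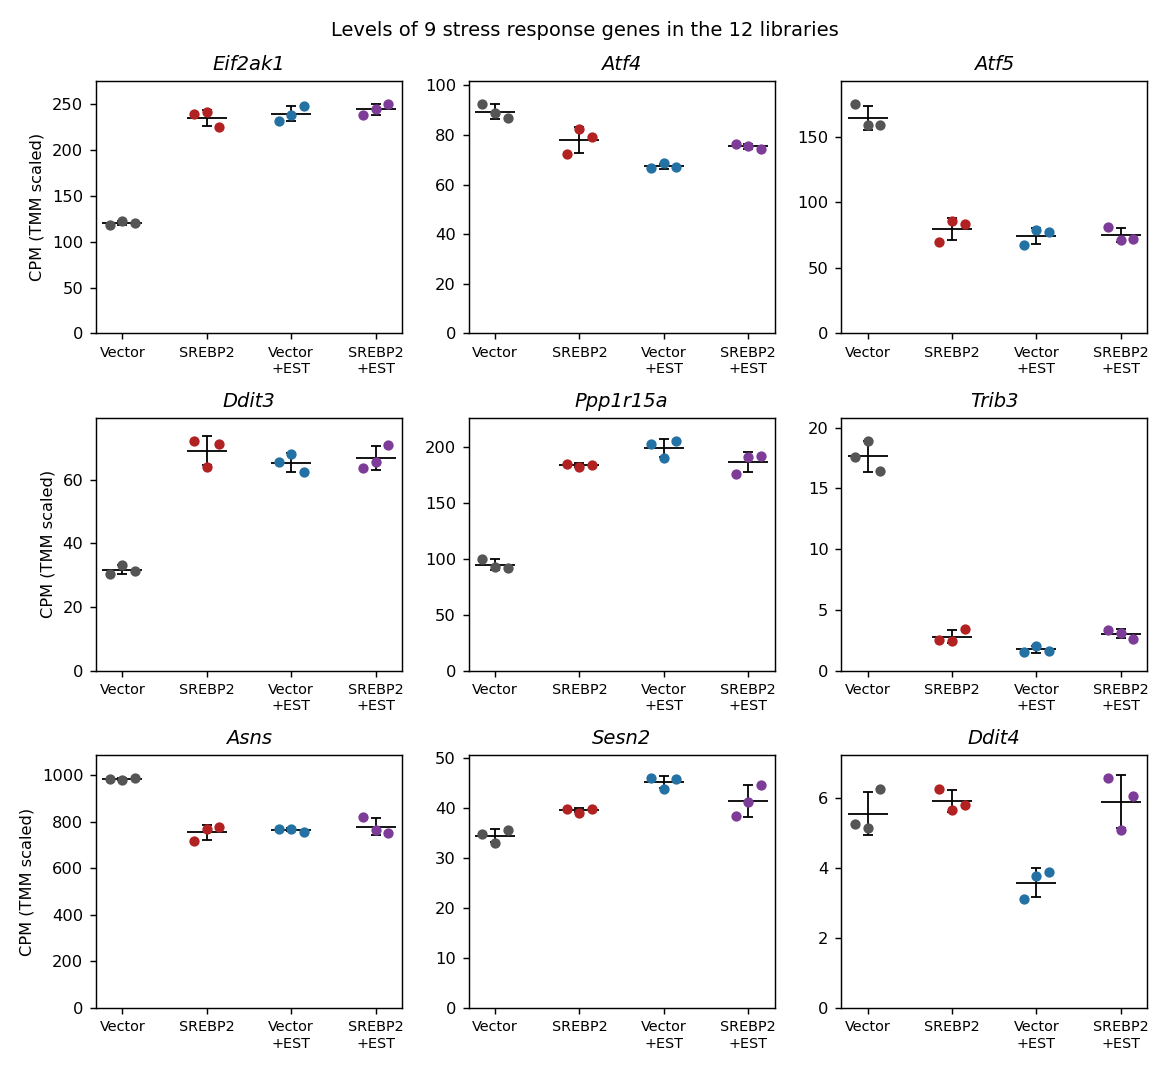
Levels of the 9 measured genes in the 12 libraries, in CPM on linear axes that start at 0, with each point a library in header order and the bars the mean ± SD of 3. The Vector libraries stand apart from the other 9 for Eif2ak1, Atf4, Atf5, Ddit3, Ppp1r15a, Trib3, Asns and Sesn2. For Ddit4 the Vector+EST libraries are the low ones. Differences from Vector were common, with 70.6% of all genes called with EST and 71.5% with SREBP2.

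Eif2ak1 encodes HRI and lies on the plus strand of chr5:143817788-143904251 (GRCm38, as are all gene positions here). Its level was 118, 122 and 120 CPM in the Vector libraries, which are listed throughout in the order of the numbers in the count table's headers (1, 4 and 5), and 232, 238 and 248 CPM in Vector+EST (1, 3 and 5). It was 239, 241 and 225 CPM in SREBP2 (1, 3 and 5) and 238, 245 and 250 CPM in SREBP2+EST (1, 2 and 5). All 9 libraries with EST or SREBP2 lay above all 3 Vector libraries, and those 3 groups overlapped each other. The level was 1.99-fold that of Vector with EST (log2 fold change 0.99 ± 0.04 SE, edgeR adjusted p = 3.06e-12) and 1.95-fold with SREBP2 (0.96 ± 0.04, adjusted p = 3.45e-12). Of all genes tested, 8.76% rose as much or more with EST and 11.5% with SREBP2. Exons of Aimp2 and Ankrd61 on the opposite strand cover 8.59% and 3.03% of its exon bases, and since the strand used in counting is not given, reads there cannot be told apart. Aimp2, a scaffold of the tRNA synthetase complex, rose by 0.61 with EST and 0.47 with SREBP2 on the log2 scale, less than Eif2ak1, and Ankrd61 stayed at or under 2.16 CPM on average in each group.

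Atf4 encodes the transcription factor at the centre of the response (chr15:80255184-80257541, plus strand). It stood at 92.5, 89.0 and 86.9 CPM in Vector and at 66.6, 68.6 and 66.9 CPM in Vector+EST. In SREBP2 it was 72.5, 82.6 and 79.1 CPM, and in SREBP2+EST 76.5, 75.5 and 74.2 CPM. The Vector libraries were the highest, the Vector+EST libraries the lowest and both SREBP2 groups lay between without touching either. The fall was 1.33-fold with EST (log2 fold change -0.41 ± 0.05, edgeR adjusted p = 9.95e-07) and 1.15-fold with SREBP2 (-0.2 ± 0.05, adjusted p = 0.00139), changes that 22.8% and 33.3% of all genes reached or passed downward.

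Atf5, which encodes a related bZIP factor that is also translated under eIF2α phosphorylation, fell further. Its level was 175, 159 and 159 CPM in Vector and 67.6, 78.6 and 77.7 CPM in Vector+EST. In SREBP2 it was 69.7, 85.8 and 83.6 CPM and in SREBP2+EST 81.3, 71.6 and 72.1 CPM. The lowest Vector library was well above the highest of the other 9, and among those 9 the groups overlapped. The log2 fold change was -1.14 ± 0.08 with EST (2.2-fold lower, edgeR adjusted p = 1.49e-09) and -1.04 ± 0.08 with SREBP2 (2.06-fold lower, adjusted p = 3.79e-09). Atf5 lies on the minus strand at chr7:44812256-44816658, where exons of Nup62 and Il4i1 on the other strand cover 4.11% of its exon bases. Nup62, a nuclear pore gene, also fell, by 0.52 and 0.63 on the log2 scale, and Il4i1 was at or under 0.342 CPM on average in each group.

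Ddit3 encodes CHOP, a factor induced by ATF4 and tied to cell death under lasting stress, and it moved opposite to Atf4. It stood at 30.4, 33.3 and 31.4 CPM in Vector and at 65.4, 68.2 and 62.3 CPM in Vector+EST. The SREBP2 libraries gave 72.1, 63.9 and 71.3 CPM and the SREBP2+EST libraries 63.8, 65.6 and 70.9 CPM. Every library with EST or SREBP2 lay above every Vector library, again with overlap among the 3 groups. The rise was 2.06-fold with EST (log2 fold change 1.04 ± 0.06, edgeR adjusted p = 2.99e-10) and 2.18-fold with SREBP2 (1.12 ± 0.06, adjusted p = 1.01e-10). Ddit3 was the only one of the 9 whose counts carried decimals, in all 12 libraries, so some of its reads were divided by the counting tool. GENCODE holds a second gene model inside it (chr10:127290774-127296288 and chr10:127290829-127293753, plus strand), and exons of Mars, a tRNA synthetase gene that fell by 0.21 and 0.3, overlap 3.97% of its exon bases on the other strand.

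Ppp1r15a encodes GADD34, the stress-induced subunit that brings protein phosphatase to eIF2α and so ends the response. The Vector libraries held 100, 92.2 and 91.4 CPM and the Vector+EST libraries 202, 190 and 205 CPM. SREBP2 libraries held 185, 182 and 184 CPM and SREBP2+EST libraries 176, 191 and 192 CPM. Vector was the low group, with no overlap with any other, and the 3 SREBP2 libraries lay just under the 3 Vector+EST libraries. Ppp1r15a was 2.1-fold higher with EST (log2 fold change 1.07 ± 0.05, edgeR adjusted p = 8.57e-12) and 1.94-fold higher with SREBP2 (0.96 ± 0.05, adjusted p = 2.99e-11). It lies at chr7:45522916-45526268 on the minus strand, 706 kb from Atf5 on the same chromosome, and the 2 genes moved in opposite directions. An overlap with Tulp2 on the other strand covers 0.409% of its exon bases.

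Trib3, a pseudokinase induced by ATF4 and CHOP that dampens ATF4 activity, showed the widest change of the 9. Its level was 17.6, 18.9 and 16.4 CPM in Vector (321 to 372 counts) and 1.55, 2.04 and 1.64 CPM in Vector+EST (30 to 39 counts). It was 2.54, 2.44 and 3.42 CPM in SREBP2 and 3.36, 3.12 and 2.64 CPM in SREBP2+EST. Each library with EST or SREBP2 was far below the Vector libraries, and the 3 Vector+EST libraries lay under all 6 libraries with SREBP2. The fall was 10.1-fold with EST (log2 fold change -3.34 ± 0.14, edgeR adjusted p = 3.55e-12) and 6.31-fold with SREBP2 (-2.66 ± 0.13, adjusted p = 1.76e-11). By size it was the 43rd largest fall of 11177 genes with EST (0.385% fell as much or more) and the 74th with SREBP2 (0.662%). Trib3 lies at chr2:152337422-152344032, minus strand, and its promoter holds the C/EBP-ATF letters shown above.

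Asns encodes asparagine synthetase, a classical ATF4 target whose RefSeq promoter window also matches the C/EBP-ATF letters, and it was by far the most abundant of the 9. It stood at 985, 982 and 988 CPM in Vector and 768, 770 and 758 CPM in Vector+EST. The SREBP2 libraries held 717, 768 and 780 CPM and the SREBP2+EST libraries 821, 766 and 751 CPM. All Vector libraries were above all others, and the other 3 groups overlapped. The fall was 1.29-fold with EST (log2 fold change -0.36 ± 0.04, edgeR adjusted p = 3.1e-07) and 1.3-fold with SREBP2 (-0.38 ± 0.04, adjusted p = 1.58e-07), far smaller than that of Trib3. The gene spans chr6:7675169-7693254 on the minus strand.

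Sesn2 and Ddit4 encode inhibitors of mTORC1, the kinase complex that drives growth and protein synthesis. Sesn2 (sestrin 2, a leucine sensor, chr4:132492032-132510501, minus strand) was 34.8, 33.0 and 35.7 CPM in Vector and 46.0, 43.8 and 45.9 CPM in Vector+EST. It was 39.8, 39.1 and 39.9 CPM in SREBP2 and 38.4, 41.3 and 44.7 CPM in SREBP2+EST. Vector was lowest, SREBP2 lay wholly between Vector and Vector+EST, and SREBP2+EST ran from the level of SREBP2 to that of Vector+EST. Its rise was 1.31-fold with EST (log2 fold change 0.39 ± 0.06, edgeR adjusted p = 1.22e-05) and 1.15-fold with SREBP2 (0.2 ± 0.06, adjusted p = 0.00546). The second of these calls rested on Vector library 4, without which it was 0.13 with an adjusted p of 0.094.

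Ddit4 (REDD1, chr10:59949669-59951834, minus strand) was scarce, with 60 to 122 counts per library. Its level was 5.23, 5.14 and 6.24 CPM in Vector and 3.09, 3.76 and 3.87 CPM in Vector+EST. The SREBP2 libraries held 6.25, 5.63 and 5.8 CPM and the SREBP2+EST libraries 6.55, 5.06 and 6.03 CPM. The Vector+EST libraries were below all 9 others, and those 9 overlapped. Ddit4 fell 1.55-fold with EST in Vector cells (log2 fold change -0.63 ± 0.14, edgeR adjusted p = 0.0006). With SREBP2 alone the difference from Vector was 0.09 (95% interval -0.18 to 0.36, adjusted p = 0.54).

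**Figure D2:**
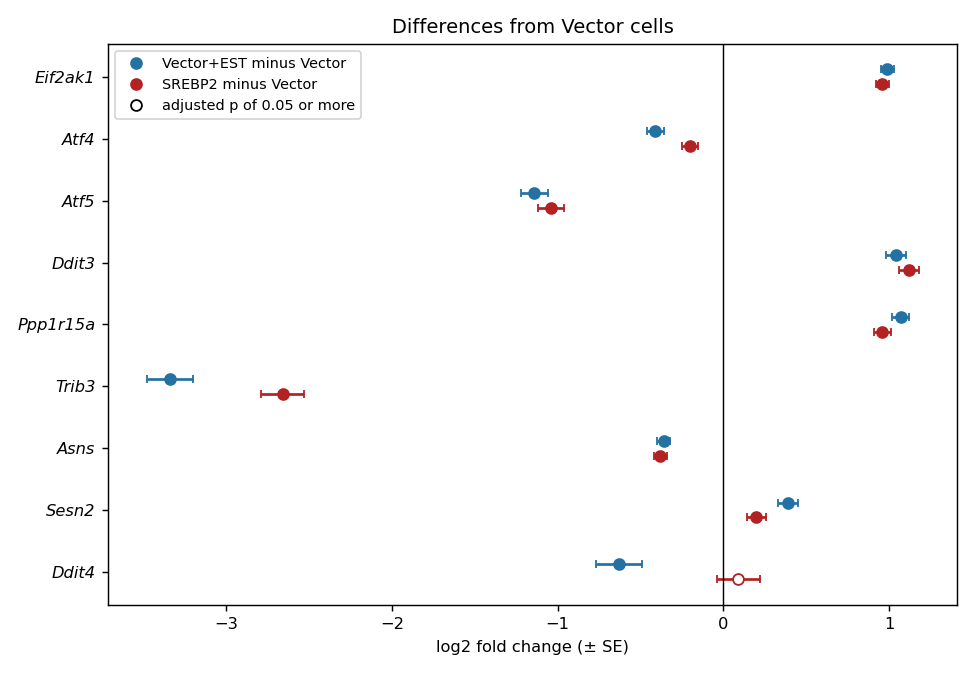
Log2 fold changes from Vector cells (± SE) of the 9 measured genes, with EST in blue and with SREBP2 overexpression in red, filled where the edgeR adjusted p is under 0.05. Trib3 lies farthest left, at -3.34 and -2.66, Eif2ak1, Ddit3 and Ppp1r15a lie near 1 in both, and Ddit4 with SREBP2 is the open point.

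The 3 groups that received EST, SREBP2 or both were then compared with each other. SREBP2 overexpression in the presence of EST raised Trib3, Ddit4 and Atf4 and lowered none, 3 of 9 genes against 21.9% of all genes (14.0% upward, 7.94% downward). Trib3 was 3.04 ± 0.367 CPM in SREBP2+EST and 1.74 ± 0.261 CPM in Vector+EST, a log2 fold change of 0.8 ± 0.18 (edgeR adjusted p = 0.00416). Ddit4 was 5.88 ± 0.756 against 3.58 ± 0.423 CPM (0.72 ± 0.14, adjusted p = 0.00109). Atf4 was 75.4 ± 1.17 against 67.4 ± 1.06 CPM (0.16 ± 0.05, adjusted p = 0.0234). The libraries of both groups did not overlap for any of the 3 genes. The Atf4 call was lost with DESeq2 (adjusted p = 0.0561), with scaling by library totals alone (0.0694) and when any 1 of 4 libraries was left out (Vector+EST 1 or 5, SREBP2+EST 1 or 2, adjusted p 0.0565 to 0.0821). For the other 6 genes the 95% intervals reached at the lowest -0.25, for Sesn2, and at the highest 0.18, for Atf5. Over all genes, 63.7% of calls were upward here, and 42.2% with library totals alone (11.6% of genes upward, 15.8% downward), where Ppp1r15a (-0.14, adjusted p = 0.0372) and Sesn2 (-0.17, adjusted p = 0.0345) also passed downward. Without SREBP2+EST library 5, Sesn2 passed as well (-0.18, adjusted p = 0.0416), and without both libraries that stand apart the call was again 3 upward and 0 downward, but beside 30.7% of all genes called (16.8% upward, 14.0% downward).

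SREBP2 alone was also set against EST alone, a comparison that shares no library with that of the preceding paragraph except those of Vector+EST. Atf4 (log2 difference 0.21 ± 0.05, edgeR adjusted p = 0.00421), Trib3 (0.68 ± 0.18, adjusted p = 0.0126) and Ddit4 (0.72 ± 0.14, adjusted p = 0.00097) were higher with SREBP2, and Sesn2 (-0.19 ± 0.06, adjusted p = 0.0217) was lower. These 4 of 9 stand beside 23.4% of all genes (14.4% upward, 8.96% downward). Upward calls made up 61.7% of all calls here, and 42.2% with library totals alone. Trib3 did not pass without SREBP2 library 5 (0.51, adjusted p = 0.0716) or Vector+EST library 1 (0.6, adjusted p = 0.0573), and Sesn2 did not pass without SREBP2 library 3 or Vector+EST library 1 or 5 (adjusted p 0.071 to 0.0741). Eif2ak1 (-0.03, 95% interval -0.11 to 0.05), Asns (-0.02, -0.1 to 0.06), Ddit3 (0.08, -0.04 to 0.21) and Atf5 (0.1, -0.07 to 0.26) did not pass. Ppp1r15a, whose libraries did not overlap, differed by -0.12 (-0.21 to -0.02, adjusted p = 0.0825). Without both libraries that stand apart, Atf5 (0.18, adjusted p = 0.0208) and Ppp1r15a (-0.12, adjusted p = 0.0239) passed too, which gave 4 higher and 2 lower, beside 34.4% of all genes called (18.7% upward, 15.7% downward).

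**Figure D3:**
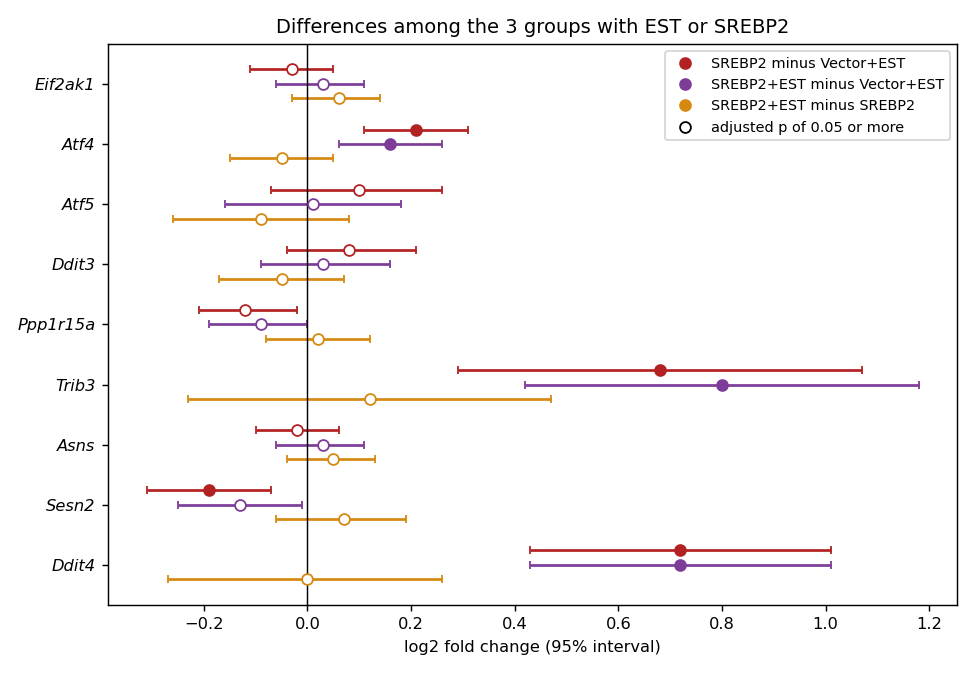
Log2 differences among the 3 groups with EST or SREBP2 (points, with 95% intervals), filled where the edgeR adjusted p is under 0.05. Trib3, Ddit4 and Atf4 lie to the right in both comparisons with Vector+EST, while the 9 intervals for SREBP2+EST minus SREBP2 all cross 0.

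EST in cells that already overexpressed SREBP2 gave no call among the 9 genes, and none among all 11177 (0.0% called by edgeR). At an unadjusted p under 0.05 there were 506 genes and 0 of the 9, and DESeq2 called 12 genes. The log2 fold changes ran from -0.09 for Atf5 (95% interval -0.26 to 0.08) to 0.12 for Trib3 (-0.23 to 0.47), with Eif2ak1 at 0.06 (-0.03 to 0.14). The number of calls in this comparison depended on whether both libraries that stand apart were left out. Atf5, shown because it alone of the 9 passed without them, was 69.7 CPM in SREBP2 library 1, beside SREBP2+EST libraries 2 and 5 (71.6 and 72.1). In SREBP2+EST library 1 it was 81.3, near SREBP2 libraries 3 and 5 (85.8 and 83.6). Not all genes were placed so. In SREBP2 library 1, Trib3 (2.54 CPM) lay beside SREBP2 library 3 (2.44), and Ppp1r15a (185) beside SREBP2 libraries 3 and 5 (182 and 184). Without the 2 libraries that stand apart, 1567 genes (13.9%) passed, among them Atf5 (-0.24, edgeR adjusted p = 0.0179) and none of the other 8. With either of the 2 left out alone, 0 genes passed. The 2 were chosen after the data were seen and deviated toward each other's group, so leaving both out widens this difference by itself. The 1567 calls and the Atf5 call are therefore a description.

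The EST effect differed between Vector and SREBP2 cells for each of the 9 genes when the difference itself was tested (interaction, edgeR adjusted p under 0.05), beside 59.0% of all genes (29.8% upward, 29.2% downward; 5 and 4 of the 9). The difference was widest for Trib3, at 3.46 ± 0.22 on the log2 scale (adjusted p = 1.97e-09), and the least certain for Ddit4, at 0.63 ± 0.19 (adjusted p = 0.00841). EST in SREBP2 cells moved the 9 genes by only -0.09 to 0.12. These values therefore largely restate the EST effect in Vector cells with the sign reversed, from the same Vector libraries. All 9 calls also stood without both libraries that stand apart, beside 57.1% of all genes, where the value that moved most was that of Atf5, from 1.05 to 0.94.

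Levels can be ordered between genes only per length, here that of all GENCODE exons of a gene merged. The transcripts expressed may be shorter, so the order depends on this choice. In Vector cells, as CPM per kilobase of exon (RPKM, GENCODE exon lengths), Asns led with 360 ± 1.2, followed by Atf5 at 82.5 ± 4.83, Atf4 at 37.9 ± 1.18, Ppp1r15a at 32.2 ± 1.64, Eif2ak1 at 21.2 ± 0.348, Ddit3 at 18.5 ± 0.845, Sesn2 at 9.92 ± 0.399, Trib3 at 8.32 ± 0.594 and Ddit4 at 3.16 ± 0.348. With EST the order below Asns changed. Ppp1r15a came second at 67.7 ± 2.78, then Eif2ak1 at 42.2 ± 1.42, and Ddit3 (38.1 ± 1.72) and Atf5 (37.4 ± 3.06) followed with levels closer than their spread. Atf4 stood at 28.6 ± 0.448, and Trib3 was last at 0.82 ± 0.123. In SREBP2 cells Ppp1r15a (62.5 ± 0.394) was also second, while Eif2ak1 (41.4 ± 1.54), Ddit3 (40.4 ± 2.63) and Atf5 (40.0 ± 4.38) lay within their spread of one another.

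The profile of Eif2ak1 over the 12 libraries was a common one. Among 8494 well-measured genes the most similar were St3gal5, a ganglioside synthase (Pearson r 0.999 of log2 CPM), Spindoc (0.998) and Stat5b, a transducer of erythropoietin signalling (0.998), and 1292 genes had r above 0.95. Stat5b was 95.8 ± 1.38 CPM in Vector and 249 ± 12.1, 260 ± 6.41 and 264 ± 2.77 CPM in SREBP2, Vector+EST and SREBP2+EST. Only 56 genes came as close to Atf4, led by Limd2 (0.984), Dhdds, a polyprenyl synthase gene (0.983), and Laptm5, a lysosomal membrane gene (0.981). Limd2 had the same order of groups as Atf4, with 112 ± 1.21 CPM in Vector, 81.7 ± 10.9 in SREBP2, 76.5 ± 4.92 in SREBP2+EST and 57.0 ± 2.59 in Vector+EST. These correlations describe 12 libraries in 4 groups and share the separation of Vector from the rest. The number of genes above a set r also depends on the size of a change beside its spread, and Atf4 changed less than Eif2ak1.

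Other genes of the pathway were taken from 7 lists by function, 72 genes of which 60 were tested. With EST 19 rose and 30 fell, and with SREBP2 21 rose and 27 fell, beside the background shares given above. Their median log2 fold change was -0.15 with EST and -0.08 with SREBP2. For each list the largest called rise and fall are named among genes whose mean log2 CPM was 2 or more. Scarcer genes left out by this limit fell further in some lists, and 3 of them, chosen after their values were seen, are given with their lists.

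Among 7 genes of the eIF2α kinases and their inputs, 3 rose and 2 fell in each comparison. The other kinase genes did not all move in 1 direction. Eif2ak3, which encodes the ER stress kinase PERK, went from 18.4 ± 1.02 CPM to 26.3 ± 0.553 with EST and 27.0 ± 4.65 with SREBP2 and passed in both (log2 0.52 and 0.56). Eif2ak2, the gene for the double-stranded RNA kinase PKR, fell by 0.34 and 0.38, from 91.1 ± 4.23 to 72.0 ± 2.52 and 70.2 ± 2.2 CPM. Eif2ak4, the gene for the amino acid sensor GCN2, rose with SREBP2 (0.26, edgeR adjusted p = 0.000294) and did not pass with EST (-0.06, adjusted p = 0.298). Impact, an inhibitor of GCN2 activation, led the list upward (29.5 ± 1.74 to 47.8 ± 2.34 and 61.4 ± 1.36 CPM), and Gcn1, the GCN2 activator, led it downward (321 ± 7.61 to 240 ± 13.3 and 238 ± 17.5 CPM). Dele1, which relays mitochondrial stress to HRI, rose by 0.17 with EST and did not pass with SREBP2 (0.07), and Oma1, the protease that cleaves it, passed in neither (-0.04 and -0.09).

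Of 10 genes for eIF2, its exchange factor eIF2B and the phosphatase, 2 rose and 6 fell with EST, and 1 rose and 7 fell with SREBP2 (medians -0.27 and -0.33). Ppp1r15b, the constitutive counterpart of GADD34, rose from 168 ± 5.95 to 348 ± 5.59 CPM with EST and to 354 ± 8.22 with SREBP2 (log2 1.05 and 1.08), close to the rise of Ppp1r15a. Eif2b3 fell most, from 63.6 ± 1.97 to 42.6 ± 1.12 and 40.2 ± 4.64 CPM.

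The ATF4 partners and related bZIP factors were 8 genes of which 5 were tested, with 1 up and 3 down with EST and 2 up and 2 down with SREBP2. Cebpb, whose product pairs with ATF4, fell from 26.3 ± 2.44 to 10.3 ± 1.63 CPM with EST and 10.7 ± 1.45 with SREBP2. The scarcer Nupr1, a stress-induced chromatin factor, fell by 1.66 and 1.41 on the log2 scale, from 7.43 ± 0.456 CPM. Nfe2l1, which drives proteasome genes, went from 69.4 ± 0.592 CPM to 262 ± 8.76 with SREBP2 (log2 1.92, edgeR adjusted p = 2.12e-15) and stood at 71.0 ± 2.42 with EST alone (0.03, adjusted p = 0.513). With both it was 246 ± 8.94 CPM. Nfe2l2, which encodes the antioxidant regulator NRF2, was the riser of this list with EST, from 123 ± 1.91 to 189 ± 2.58 CPM.

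The enzymes of serine, proline and one-carbon metabolism, 8 tested of 11, had 2 up and 4 down with EST and 2 up and 3 down with SREBP2. Aldh18a1, the first enzyme of proline synthesis, rose from 144 ± 2.53 to 186 ± 3.33 CPM with EST, and Psat1 of serine synthesis led with SREBP2, from 340 ± 4.75 to 392 ± 6.93 CPM. Mthfd1l, a mitochondrial folate enzyme, fell from 160 ± 1.09 to 120 ± 1.01 and 105 ± 8.38 CPM. Aldh1l2, another mitochondrial folate enzyme, stood at only 0.767 ± 0.182 CPM in Vector and fell by 1.44 on the log2 scale with EST. The amino acid carriers, 9 genes, leaned downward, with 1 up and 6 down with EST and 2 up and 6 down with SREBP2 (medians -0.9 and -0.58). Slc7a5, the large neutral amino acid carrier, went the other way, from 184 ± 2.84 to 448 ± 15.2 and 506 ± 17.4 CPM. Slc1a5, the glutamine carrier, fell from 69.5 ± 0.961 to 26.6 ± 0.398 CPM with EST and stood at 60.8 ± 8.94 CPM with SREBP2 and 58.2 ± 4.5 CPM with both, so that SREBP2 in the presence of EST raised it (1.13, edgeR adjusted p = 6.05e-08). Slc1a4, a carrier of serine and alanine, fell from 8.15 ± 0.238 to 3.87 ± 0.584 CPM with SREBP2, the largest fall among the carriers above the level limit. Below that limit Slc7a11, the cystine carrier, fell by 2.19 with EST and 1.6 with SREBP2 on the log2 scale, from 1.53 ± 0.268 CPM.

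Of 15 ATF4 targets in signalling, growth and stress, 9 were tested, with 3 up and 4 down with EST and 4 up and 3 down with SREBP2. Ero1a, an oxidase of the endoplasmic reticulum (ER) that CHOP induces, rose from 223 ± 1.72 to 527 ± 20.1 and 561 ± 16.1 CPM. Bbc3, which encodes the death factor PUMA, fell from 40.7 ± 1.57 to 13.0 ± 0.137 and 15.2 ± 0.873 CPM. The 12 genes of the ATF6 and IRE1 arms of the ER stress response had 7 up and 5 down with EST and 7 up and 4 down with SREBP2 (medians 0.3 and 0.41). Ern1, the gene for IRE1α, rose from 20.9 ± 0.362 to 59.9 ± 3.5 and 60.8 ± 13.0 CPM, whereas Calr, the chaperone calreticulin, fell from 817 ± 2.89 to 516 ± 23.9 and 500 ± 3.9 CPM. SREBP2 in the presence of EST raised 10 and lowered 6 of the 60 genes, beside 14.0% and 7.94% of all genes. With library totals alone the counts were 9 and 8, beside 11.6% and 15.8%. EST in SREBP2 cells gave 0 calls among the 60.

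**Figure D4:**
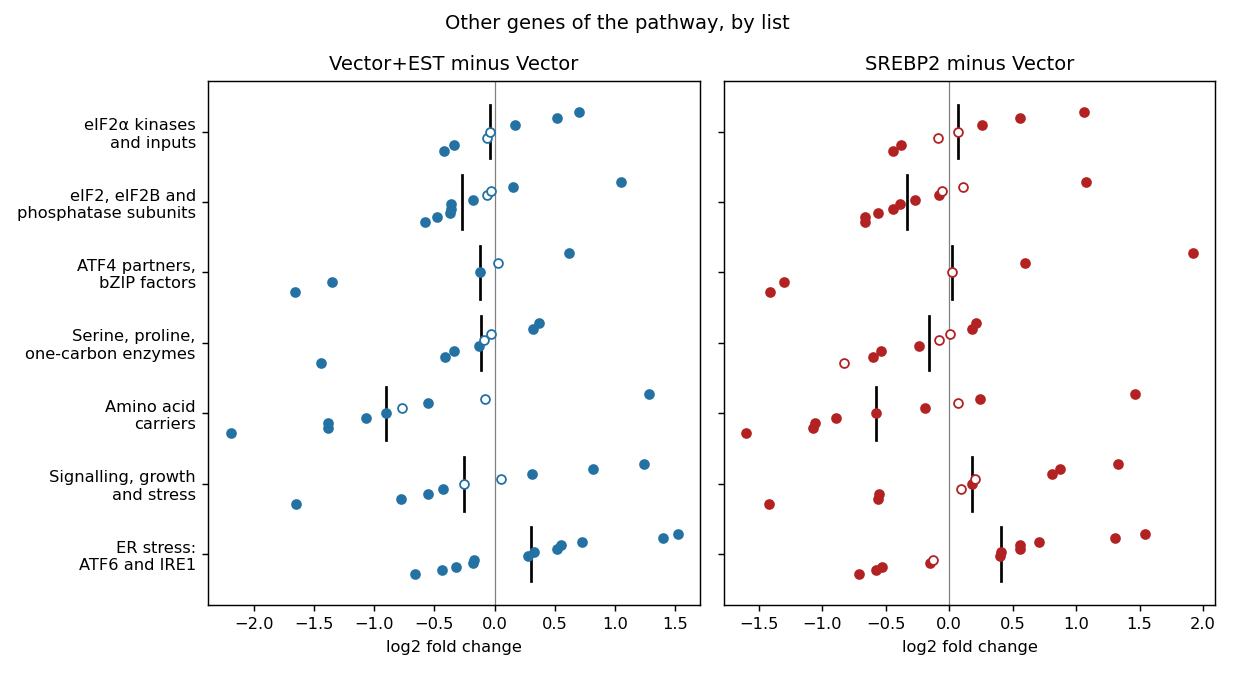
Log2 fold changes of the 60 tested genes of the 7 lists with EST (left, blue) and with SREBP2 overexpression (right, red), both from Vector cells, with each point a gene, filled where the edgeR adjusted p is under 0.05, and each bar the list median. The amino acid carriers have the lowest medians, -0.9 and -0.58, and the ER stress genes the highest, 0.3 and 0.41.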

How the data were processed

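RNA was extracted with TRIzol, mRNA was selected with oligo(dT) beads and sequenced on a DNBSEQ platform. The authors deposited estimated counts per gene, not normalized (66.5% whole numbers). The submitters' processing notes name HISAT2 2.0.4, Bowtie2 2.2.5, RSEM 1.2.12, DESeq2 1.4.5 and GRCm38.p6; the annotation and the strand setting are not given in the sources used here. A second deposited table, with the authors' own fold changes and p-values, was not used.

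Estimated counts were rounded. Genes passing edgeR's filterByExpr (11177 kept, 6033 left out) were scaled by TMM and tested with edgeR 4.0.16 in R 4.3.3 (quasi-likelihood F-test, 1 mean per group, all 12 libraries), with Benjamini-Hochberg adjustment over all genes tested and a threshold of 0.05. The procedure was tested on simulated counts in which 200 of 11177 genes were changed, and 175 were recovered with 7 false calls. With EST in Vector cells 70.6% of genes passed in the data, and the simulation does not cover changes that widespread. Standard errors are the log2 fold change over the square root of F, and 95% intervals use the t distribution. Levels are CPM after TMM scaling, mean ± SD of 3 libraries, and similarity was computed on log2 CPM (prior count 2). A level of 3 counts is 0.153 to 0.163 CPM. Among the listed genes that were measured, Trib3 in Vector+EST had the fewest counts, 30 to 39. Some genes of the pathway lists were scarcer and their levels less certain. In Vector+EST, Slc7a11 averaged 0.329 ± 0.244 CPM and Aldh1l2 0.28 ± 0.125 CPM.

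Groups came from the sample titles. Columns were matched to groups by name, and their numbers are not the replicate numbers of the titles. Positions and exon lengths are from GENCODE (GRCm38) and promoters from RefSeq (GRCm38.p6), with 10 of 10 genes matched. All listed genes are named whatever their values. Of the other lists, the largest called rise and fall are named (average log2 CPM 2 or more), plus the other eIF2α kinases, Dele1, Oma1 and genes whose exons overlap, added after their values were seen. The genes and lists were chosen with earlier results of these data known.

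Alternatives were DESeq2 1.42.0, RLE scaling, scaling by library totals, keeping every gene with a count, keeping genes with 10 or more counts in each library, fitting the compared groups alone, omitting single libraries in turn, and the header number as a block. Leaving out both libraries that stand apart was added after the data were seen.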

Additional observations from a re-analysis of the deposited data

Results flagged for a closer look

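The EST effect differed between SREBP2 and Vector cells for all 9 measured genes by a test of the difference itself (edgeR interaction term, adjusted p under 0.05, passed by 59.0% of all genes). Values are the EST effect in SREBP2 cells minus that in Vector cells on the log2 scale. It was 3.46 for Trib3 (adjusted p = 1.97e-09), 1.05 for Atf5 (6.36e-07), 0.63 for Ddit4 (0.00841), 0.41 for Asns (7.86e-06) and 0.36 for Atf4 (0.000246), genes that fell with EST in Vector cells. It was -1.09 for Ddit3 (1.86e-08), -1.05 for Ppp1r15a (1.64e-09), -0.93 for Eif2ak1 (9.29e-10) and -0.33 for Sesn2 (0.00242), genes that rose. The test compares additive effects on the log2 scale. EST effects in SREBP2 cells ran only from -0.09 to 0.12, so the values largely mirror those of EST in Vector cells. SREBP2 alone had already moved 8 of the 9 from Vector, all but Ddit4, and the Vector libraries enter both sides of that statement. No cause was tested.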

How the results depend on the processing

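No called value changed direction, and the counts for EST in Vector cells, SREBP2 without EST and the interaction stayed within 1.5 times under every alternative run. For SREBP2 in the presence of EST, 3 genes were higher, but 1 with the replicate block, while 0 were lower, but 2 with library totals alone and 0 to 1 when single libraries were left out. All genes called there numbered 2448, and 1208 with the block, 83.2% of them upward. For SREBP2 alone against EST alone, 1 gene was lower, but 2 with library totals, 0 with the block, 2 without both libraries that stand apart and 0 to 1 when single libraries were left out. For EST in SREBP2 cells, 0 genes were lower, and 1 without both libraries that stand apart. All genes called there were 0, but 12 with DESeq2, 22 without a filter, 8 with only the libraries compared, 18 without Vector+EST library 5 and 1567 without both. Of the pathway lists, 7 genes were lower with SREBP2 alone against EST alone, and 11 with library totals. The causes were not tested.

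The replicate block used the header numbers. Of 13 pairs of libraries that share a number across groups, 4 had deviations correlated above 0.1 (r -0.465 to 0.376), so the numbers were not taken to pair the samples. With the block, Trib3 (adjusted p = 0.0604) and Atf4 (0.0935) were no longer called for SREBP2 with EST, nor Sesn2 (0.0559) for SREBP2 alone against EST alone.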
